A study of Mus musculus with 2 samples.

Results

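Neutrophils of the mouse lung that carried transcripts of Acod1, Csf1, Hdc or Ccrl2 were described in a single-cell RNA-sequencing series on inhaled diesel exhaust particles (DEP). They were chosen by unique molecular identifiers (UMIs), the tags that count single RNA molecules. Each barcode had at least 500 UMIs, at least 200 detected genes and at most 10% mitochondrial UMIs. S100a8 and S100a9 made up at least 1% of its UMIs, and it held at least 1 UMI of Csf3r, Retnlg or Cxcr2. It held no UMI of Cd79a, Cd3e, C1qa, Ace, Adgre4 or Treml4, at most 2 of H2-Aa, and a sum below 10 over the interferon genes Rsad2, Ifit1, Ifit3, Isg15 and Slfn4. The last condition was a sum of 3 or more UMIs over Acod1, Csf1, Hdc and Ccrl2, the 4-gene gate. The rule selected 4037 of 20312 barcodes, 1891 in the exposed and 2146 in the control library, and these cells are called members here.

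The exposed library came from mice labelled Ccr2-/- (KO), CD45.3+, that inhaled DEP at 500 µg/m³ for 1 hour a day on 5 days a week over 2 weeks. The control library came from mice labelled Ccr2-/- (KO), CD45.1+, that received no treatment. The design text of the series names wild-type C57BL/6J mice beside Ccr2-/- mice, while neither library is labelled wild-type, and the difference was not resolved. Both libraries held CD45+ cells sorted from digested, perfused lungs, and the loss of Ccr2, a chemokine receptor of monocytes, is labelled for both. The age of the mice, their number and any pooling were not given in the sources used here. With 1 library per condition there was no spread between animals to test against, no p-value was made, and exposure cannot be told apart from the CD45 label, any difference in genotype behind the labels, the animals, the sort or the sequencing run. Intervals below are exact 95% intervals and cover counting error only.

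Neutrophils are short-lived granulocytes made in the bone marrow, where granule proteins such as the cathelicidin Camp are made before the cells enter the blood. Mature cells carry Cxcr2, the receptor for chemokines of the CXCL family, and on stimulation transcribe Il1b, Cxcl2 and regulators of the transcription factor NF-kB. Acod1 makes itaconate from a Krebs cycle intermediate, Hdc makes histamine from histidine, Csf1 is the growth factor of monocytes and macrophages, and Ccrl2 is an atypical receptor that binds chemerin. G0s2, a further marker of these cells, inhibits the triglyceride lipase ATGL.

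The genes of the 4-gene gate lie apart in the genome (mm10). Acod1 spans chr14:103046977-103056573 on the plus strand, and on the minus strand lie Csf1 at chr3:107741048-107760469, Hdc at chr2:126593667-126619299 and Ccrl2 at chr9:111054486-111057519. Their promoters (RefSeq, GRCm38.p6) are shown because regulators of NF-kB were higher in the members richest in the 4 transcripts, as given below. The window searched ran from 250 bases before to 50 bases after the start site, on both strands. The pattern GGGA, then any 4 bases, then CC, part of the NF-kB motif, was found in the windows of Acod1, Csf1, Ccrl2 and G0s2 and not in that of Hdc, and 20.73% of 32851 mouse promoter windows held it. The 250 bases before the start site are printed 5′ to 3′ on the strand of the gene with matches to that pattern, on either strand, in capitals. They lie at chr14:103046762-103047011 (plus strand) for Acod1, chr3:107760470-107760719 (minus strand) for Csf1 and chr9:111057519-111057768 (minus strand) for the first of 3 start sites of Ccrl2.
Acod1: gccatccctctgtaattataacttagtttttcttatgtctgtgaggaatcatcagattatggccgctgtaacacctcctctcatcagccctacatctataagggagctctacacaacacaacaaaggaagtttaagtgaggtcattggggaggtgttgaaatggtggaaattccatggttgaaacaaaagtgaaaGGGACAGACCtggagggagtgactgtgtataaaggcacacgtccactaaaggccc
Csf1: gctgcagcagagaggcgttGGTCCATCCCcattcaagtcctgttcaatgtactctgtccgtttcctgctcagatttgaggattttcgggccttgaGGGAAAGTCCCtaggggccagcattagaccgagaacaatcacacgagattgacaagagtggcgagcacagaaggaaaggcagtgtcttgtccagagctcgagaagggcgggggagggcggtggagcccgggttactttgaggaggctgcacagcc
Ccrl2: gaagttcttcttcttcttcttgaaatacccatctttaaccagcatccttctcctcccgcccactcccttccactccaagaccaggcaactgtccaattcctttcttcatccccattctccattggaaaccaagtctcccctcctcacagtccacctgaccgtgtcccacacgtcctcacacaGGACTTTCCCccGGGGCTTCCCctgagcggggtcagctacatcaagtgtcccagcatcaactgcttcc
Csf1 and Ccrl2 held more than 1 match, and in Csf1 a match on each strand overlapped in the longer capital run. The other start sites of Ccrl2 had no match. The pattern TGANTCA of AP-1 (7.81% of windows) and TTGCNNAA of C/EBP (10.8%) were in none of the windows of these genes, G0s2 included. The pattern ACGTG of the hypoxia factor (19.6%) was in the window of Acod1 and in those of all 3 start sites of Ccrl2. A match describes letters and not a bound site.

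Nearly every neutrophil below the interferon gate was a member. Of these neutrophils, 98.9% passed the 4-gene gate in the exposed library (1891 of 1912 cells) and 99.5% in the control library (2146 of 2157 cells), a ratio of 0.994 (0.934 to 1.06). Around the gate, 10 exposed and 10 control cells had a sum of exactly 3 and 9 exposed and 7 control cells a sum of 2, while 1769 exposed and 2026 control cells had 8 or more. The median sum was 22 UMIs in both libraries. The gate thus left out 21 exposed and 11 control cells, and the members are nearly all of the lung neutrophils with few interferon transcripts.

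**Figure D1:**
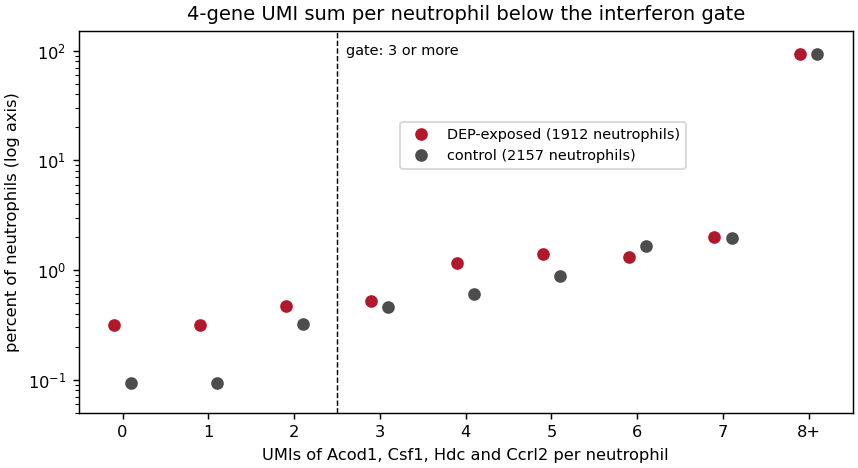
UMIs of Acod1, Csf1, Hdc and Ccrl2 summed per neutrophil below the interferon gate (x axis) against the percent of such neutrophils on a log axis, DEP-exposed in red and control in grey. Of the 1912 exposed and 2157 control cells, 1769 and 2026 sit at 8 or more, and 21 exposed and 11 control cells lie left of the gate.

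Members were a smaller share of all filtered barcodes in the exposed library, 20.1% against 22.1% in the control (ratio 0.909, 0.854 to 0.967). Neutrophils by the shared gates, whatever their interferon sum, were 24.8% of exposed and 24.2% of control barcodes (ratio 1.03, 0.969 to 1.09). The interferon gate took out 17.9% of exposed neutrophils (418 of 2330 cells), against 7.86% of control neutrophils (184 of 2341 cells), a ratio of 2.28 (1.91 to 2.73). Members were thus 81.2% of exposed and 91.7% of control neutrophils. All these shares are shares of sorted CD45+ barcodes.

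Member libraries were close in depth. They summed to 6073742 UMIs in the exposed and 6258278 in the control library, with medians of 2898 and 2708 UMIs and of 946 and 931 genes per cell. Called doublets, droplets likely to hold 2 cells, made up 4.97% of exposed and 3.54% of control members. The libraries shared 23 barcode sequences, none of them a member in both.

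The neutrophil label held for transcripts that the rule did not use. Mmp9, the gelatinase of neutrophil granules, reached 1169 CPM (counts per 1000000 UMIs) in exposed and 1264 CPM in control members, against 68.6 CPM in exposed and 83.7 CPM in control barcodes that were not neutrophils. Il1r2, the decoy receptor for interleukin-1, stood at 3137 CPM in exposed and 4622 CPM in control members, and Trem1, an activating receptor of myeloid cells, at 1453 and 1493 CPM. Hdc is also a basophil gene, yet Cpa3 came from 1 exposed and 1 control member, and Prss34 and Cd200r3 had no UMI in members. Ccr2 had 142 UMIs in exposed and 96 in control members, in 31 and 39 cells. It had 209 CPM in exposed and 143 CPM in control barcodes that were not neutrophils. Where the deleted stretch of Ccr2 lies was not given in the sources used here, so these 3′ counts do not check the label.

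The marker transcripts that chose the cells were at similar levels in both libraries. Hdc had 3496 CPM in exposed and 3907 CPM in control members (log2 ratio of exposed over control -0.16). Acod1 had 2465 CPM in exposed and 2720 CPM in control members (-0.14), and Ccrl2 had 1165 and 1357 CPM (-0.22). Csf1 was the rarest, with 421 CPM in exposed and 414 CPM in control members (0.03, interval -0.05 to 0.11). G0s2, which the rule left out, exceeded them all, with 6978 CPM in exposed and 7279 CPM in control members (-0.06). None of these differences came near 1.5-fold, and the values of the 4 genes are given as a description because they chose the cells.

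**Figure D2:**
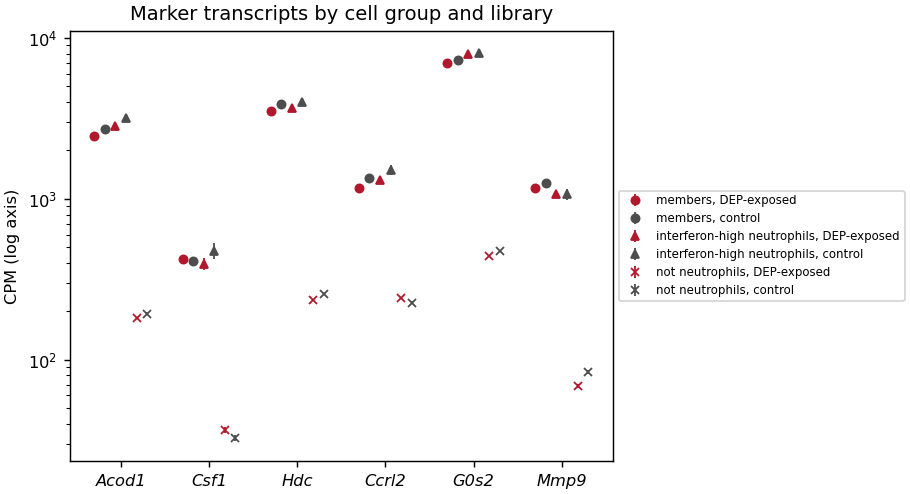
Level of 6 marker transcripts (CPM, log axis) in members, in neutrophils past the interferon gate and in barcodes that are not neutrophils, DEP-exposed in red left of control in grey, with exact 95% Poisson intervals. Csf1 is lowest in members, at 421 CPM exposed and 414 CPM control, and every marker is lower outside neutrophils.

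Hdc was seen in nearly all members and Csf1 in fewer than the rest. The share of cells with a UMI was 99.6% exposed and 99.4% control for Hdc, 89.2% and 89.4% for Acod1, 73.9% and 75.4% for Ccrl2, and 47.1% and 44.2% for Csf1. With every cell thinned to 1000 UMIs, these became 93.9% exposed and 94.5% control for Hdc, and 28.0% and 25.8% for Csf1. B cells, which should lack Hdc, showed a UMI of it in 1.03% of exposed and 1.25% of control cells at the same 1000 UMIs. This was taken as background, and whether free RNA or doublets gave it was not tested. All 4 transcripts were present together in 32.9% of exposed and 32.2% of control members, and 3 of them in 45.8% and 46.7%.

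At equal depth, each of the 4 transcripts was seen more often in cells with another of them than in cells without it. For some pairs the gap was slight, and no intervals were made for these shares. This was taken over all neutrophils below the interferon gate that reached 1000 UMIs, 1887 exposed and 2132 control cells, whether or not they passed the 4-gene gate. The pairs with Ccrl2 had wide gaps. In the exposed library, Ccrl2 was seen in 59.4% of cells with Csf1 and 50.1% of cells without, and in the control library in 65.6% and 53.6%. For Acod1 and Ccrl2 the shares were 55.0% with Acod1 and 46.2% without in the exposed library, and 58.8% and 49.8% in the control. Csf1 differed less, being seen in 28.1% of exposed cells with Acod1 and 27.4% without, and in 26.3% and 23.7% of control cells. Hdc hardly differed by Csf1, being seen in 94.7% of exposed cells with Csf1 and 93.0% without, and in 94.5% and 94.3% of control cells.

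Members still differed in how much of their RNA the 4 genes took up, and this was described by dividing each library's members into 4 bins of equal size by that share. The bins and their comparison were chosen after seeing how few cells lay below the gate. The median share ran over 0.358%, 0.605%, 0.879% and 1.28% of UMIs in exposed bins and 0.402%, 0.689%, 0.965% and 1.42% in control bins. A gene was called here when the interval of its log2 ratio, highest over lowest bin, lay beyond 1.5-fold the same way in both libraries. Of 4132 genes, 68 were higher (1.65%) and 189 lower (4.57%). The rule's own genes set this contrast, so nothing is tested by it.

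Regulators of NF-kB, survival genes and receptors were among the genes ranked highest. Tagap, a GTPase-activating protein, ranked first, with log2 ratios of 2.14 in exposed and 2.08 in control members. Nfkbia, the inhibitor that NF-kB itself induces, stood at 6041 CPM in the highest and 2559 CPM in the lowest exposed bin, and at 4008 and 1692 CPM in the control bins, a log2 ratio of 1.24 in both libraries. Gadd45b, a stress-induced survival gene, had log2 ratios of 1.69 in exposed and 1.54 in control members, and the platelet-activating factor receptor Ptafr had 1.48 and 1.30. Tnfaip3, which removes ubiquitin signals to NF-kB, had 1.26 and 1.17, the apoptosis inhibitor Birc3 1.47 and 1.21, and the adhesion ligand Icam1 1.87 and 1.44. Of 15 NF-kB and feedback genes, 8 were called higher and none lower, with medians of 0.96 in exposed and 0.91 in control members, against -0.11 and -0.09 over all genes.

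Inflammatory mediators followed the same order. Il1b stood at 21631 CPM in the highest exposed bin and 12027 CPM in the lowest (log2 ratio 0.85), with 0.68 in control members, and Cxcl2 had 1.11 in exposed and 0.80 in control members. Of 8 chemokines, 4 were higher and 1 lower, and of 8 cytokines 4 were higher and none lower. Mmp9 did not follow it, with -0.05 in exposed (-0.15 to 0.04) and 0.03 in control members (-0.07 to 0.12). Retnlg, a resistin-like protein of mature neutrophils and itself a gene of the rule, ran the other way. Its log2 ratios were -1.03 in exposed and -1.07 in control members. Over 8 neutrophil identity genes outside the rule, the median was 0.61 in exposed and 0.41 in control members, with none called. G0s2, one of them, had 0.67 and 0.44, so a rise towards the highest bin was not particular to inflammatory genes.

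**Figure D3:**
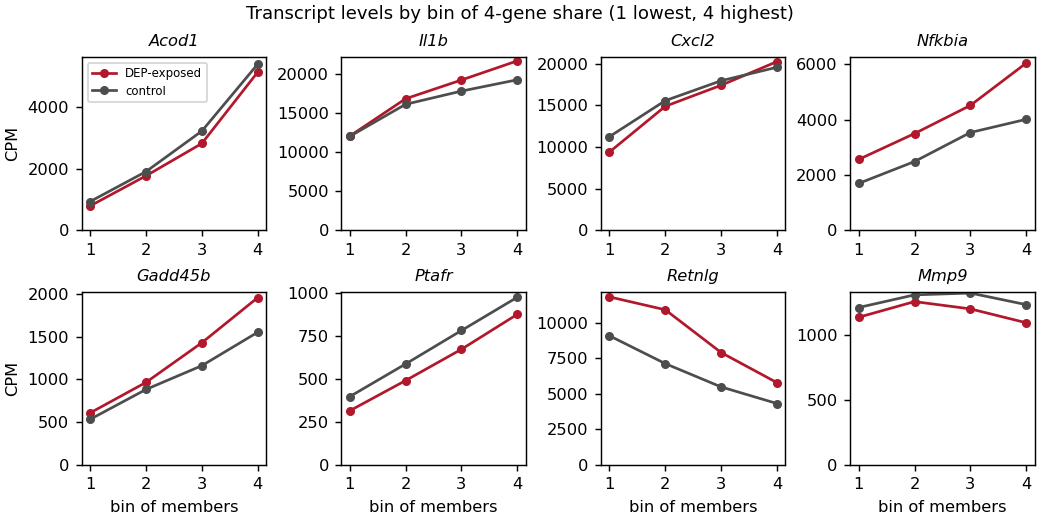
Level (CPM, linear axis from 0) of 8 transcripts in the bins of members by their share of UMIs from Acod1, Csf1, Hdc and Ccrl2 (bin 1 lowest, bin 4 highest), DEP-exposed in red and control in grey. Nfkbia climbs in both libraries to 6041 CPM exposed and 4008 CPM control in bin 4, Retnlg, a gene of the rule, declines in both, and Mmp9 stays nearly level.

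The lowest bin also held granule transcripts and transcripts of other cells. Camp stood at 2.22 CPM in the highest and 958 CPM in the lowest exposed bin, and at 0.707 and 228 CPM in the control bins. Among 11 granule genes, 6 were called lower, among 9 alveolar macrophage genes 8, and among 6 NK cell genes 6. Called doublets were 3.81% of the highest and 9.30% of the lowest exposed bin, and 1.49% and 8.19% of the control bins. With called doublets left out, 63 of 3501 genes were still higher and 15 lower, and 9 of 15 NF-kB genes were higher. Among members of middle depth, between 2338 and 3315 UMIs, 21 of 2342 genes were higher and 4 lower. The higher ones held 4 of 15 NF-kB genes, 1 of 7 chemokines and none of 8 cytokines.

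The few neutrophils below the 4-gene gate, 21 exposed and 11 control cells, were set beside the members as a description only. Higher in members in both libraries were 4 of 5361 genes (0.0746%), namely Ifitm1, Pim1, Gadd45b and Dennd4a. Lower were 14 genes (0.261%), among them Lyz2, the lysozyme of myeloid cells, at 2672 CPM in exposed members against 13837 CPM in exposed cells below the gate. The control values of Lyz2 were 2601 CPM in members and 5567 CPM below the gate. The 21 exposed cells below the gate held 72340 UMIs, with a median of 1213 and 24156 in the deepest cell. Monocyte transcripts were present among them, with Ccr2 at 511 CPM against 23.4 CPM in exposed members. In the control library Ccr2 had 85.0 CPM below the gate and 15.3 CPM in members. How far single cells or monocyte RNA set the Lyz2 values was not tested. G0s2 was higher in members of both libraries when cells were pooled, but was not among the 4 genes named above. It had 6978 CPM in exposed members against 2751 CPM below the gate, and 7279 against 4079 CPM in the control. Below the gate, exposed cells had 228 CPM at a 4-gene sum of 0, 9285 CPM at 1 and 5231 CPM at 2. The control values were 1063, 2376 and 5634 CPM. Exposed cells at a sum of 1 thus exceeded exposed members, and each of these groups held few cells.

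Neutrophils past the interferon gate carried the 4 transcripts too. In them, Acod1 had 2856 CPM exposed and 3201 CPM control, and Hdc had 3658 and 3992 CPM. This comparison was also chosen after seeing the data. Members were higher than these cells in both libraries for 10 of 5612 genes (0.178%) and lower for 52 (0.927%). Ranked first among the higher were the granule genes Camp, Ltf and Ngp, but Camp came from only 23 exposed and 7 control members. In control members 1 cell held 59.7% of the Camp UMIs, and 1 cell held 51.8% of the Ltf UMIs. Among the lower were the interferon-induced Slfn5, Ifi204, Herc6 and Zbp1, which were not in the sum of the interferon gate. That gate split these groups by interferon transcripts, so nothing is tested by the interferon genes. Slfn5 had 45.6 CPM in exposed members and 247 CPM in exposed cells past the gate, and 28.3 and 267 CPM in the control.

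Exposed and control members were then compared across every gene that reached 50 UMIs over both libraries. Of 7043 genes, 44 were higher in exposed members (0.625%) and 40 lower (0.568%), by an interval wholly beyond 1.5-fold. Left out of naming were ribosomal, mitochondrial and like classes and genes whose level in members was under 0.5 times that in barcodes that were not neutrophils (free RNA), which left 33 higher and 13 lower genes. The ranked genes below are the 12 on each side with the interval bound furthest from 0.

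Several interferon-induced genes outside the rule were higher in exposed members. Oasl2, of the oligoadenylate synthetase family, had 155 CPM in exposed and 68.2 CPM in control members (log2 ratio 1.19, 1.02 to 1.36). Of exposed members 33.1% had a UMI of Oasl2, and of control members 14.8%, and in 14.2% and 6.45% at 1000 UMIs per cell, against 0.432% and 0.337% of exposed and control B cells. Its relative Oas1a had 45 UMIs in exposed and 12 in control members (1.91), while Oasl1 had 131 UMIs in exposed and 155 in control members (-0.20, -0.55 to 0.15). Ifitm1, a membrane protein that limits viral entry, had 1604 CPM in exposed and 947 CPM in control members (0.76), and Gbp2, a guanylate-binding protein, 33.3 and 14.1 CPM (1.24). In barcodes that were not neutrophils, Ifitm1 had 146 CPM in the exposed and 72.2 CPM in the control library. There Oasl2 had 24.2 and 16.2 CPM, Oas1a 10.9 and 5.76 CPM, and Gbp2 22.6 and 24.5 CPM. Higher exposed levels of Ifitm1, Oasl2 and Oas1a were thus not particular to members. Ifi27l2a had 1044 CPM in exposed and 646 CPM in control members (0.69), and the nucleic acid sensor Zbp1 23.9 and 11.8 CPM (1.01). Of the 19 interferon-induced genes with 20 or more counts, 16 had a log2 ratio above 0, 4 were past 1.5-fold higher and none lower, with a median of 0.39. Over the 8871 genes at that count, 0.643% were higher and 0.71% lower, and the median was -0.07. Of the interferon genes that the rule limited, Isg15 had 633 CPM in exposed and 426 CPM in control members (0.57). Rsad2 was nearly level, with 96.8 and 88.4 CPM (0.13, -0.04 to 0.30). Slfn4 had a log2 ratio of 0.34, Ifit1 of 1.11 and Ifit3 of 0.55 (-0.29 to 1.44). The rule set the same ceiling on these limited genes in both libraries, but it took out 17.9% of exposed and 7.86% of control neutrophils. Their values in members are therefore given as a description. In the interferon list outside the rule the median stayed between 0.27 and 0.65 over the alternatives tried.

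Camp, Ngp and Ltf, transcripts of granule proteins, were higher in exposed members, and most of their UMIs came from few cells. Camp had 289 CPM in exposed and 66.2 CPM in control members (2.12, 1.97 to 2.28), from 23 exposed and 7 control cells. Ngp, the neutrophilic granule protein, had 534 CPM in exposed and 160 CPM in control members (1.74), and lactoferrin, Ltf, 146 and 45.1 CPM (1.69). One cell held 27.1% of the Camp UMIs in exposed and 59.7% in control members. Olfm4, a protein of specific granules, had 18.6 CPM in exposed and 5.11 CPM in control members (1.85), and the stefin Stfa3 had 97 UMIs in exposed and 28 in control members (1.82). Of 12 granule genes with 20 or more counts, 11 had a log2 ratio above 0, 3 were called higher and none lower, with a median of 0.47, and Mmp8, the neutrophil collagenase, had 330 CPM in exposed and 379 CPM in control members (-0.20).

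Cells with 50 or more UMIs of Camp, Ngp and Ltf numbered 10 in the exposed and 3 in the control library and took up 93.0% of these UMIs in exposed and 81.9% in control members. At 20 or more UMIs they were 16 exposed cells (0.846% of members) and 4 control cells (0.186%), with shares in a ratio of 4.54 (1.46 to 18.7). At 5 or more they were 24 exposed and 17 control cells, with shares in a ratio of 1.60 (0.825 to 3.18). The 4-gene level in the 10 exposed and 3 control cells was 1898 and 1658 CPM, against 7629 and 8421 CPM in the remaining exposed and control members. Without the members at 5 or more UMIs, the log2 ratio of Ngp was 0.34, that of Ltf 0.08 and that of Stfa3 0.46. That of Camp was 2.26, but Camp was seen in only 23 exposed and 7 control members before these were left out. Its value therefore rests on few cells and does not show a difference outside the granule-rich cells. Granule genes seen in many cells differed less, with Lcn2 at 1455 CPM in exposed and 963 CPM in control members (0.60) and Wfdc21 at 1170 and 926 CPM (0.34). Lyz2 was level, at 2672 CPM in exposed and 2601 CPM in control members (0.04).

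Several higher genes were spread over many cells. Glipr2, a Golgi-associated protein, had 261 CPM in exposed and 124 CPM in control members (1.07, 0.95 to 1.20), and 23.0% of exposed members had a UMI of it at 1000 UMIs, against 11.3% of control members. Tagln2, an actin-binding protein, had 372 CPM in exposed and 174 CPM in control members (1.10, 1.00 to 1.21). It was seen in 809 exposed and 450 control members, a ratio of shares of 2.30 at 1000 UMIs, and in 20.2% of exposed and 22.1% of control B cells, which also transcribe it. Upp1, the uridine phosphorylase, had 57.5 CPM in exposed and 17.7 CPM in control members (1.69, 1.38 to 2.02), in 217 exposed and 92 control cells. Rfx2, a transcription factor known for its role in ciliated cells, had 76 UMIs in 70 exposed members and 15 UMIs in 15 control members (2.35, 1.57 to 3.29). Fabp5, a fatty acid-binding protein that was listed as a macrophage marker, had 122 CPM in exposed and 71.3 CPM in control members (0.78, 0.61 to 0.95) and was seen in 494 exposed and 284 control cells. Csf3, the growth factor of neutrophils, had only 44 UMIs in exposed and 10 in control members (2.13, 1.17 to 3.34).

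**Figure D4:**
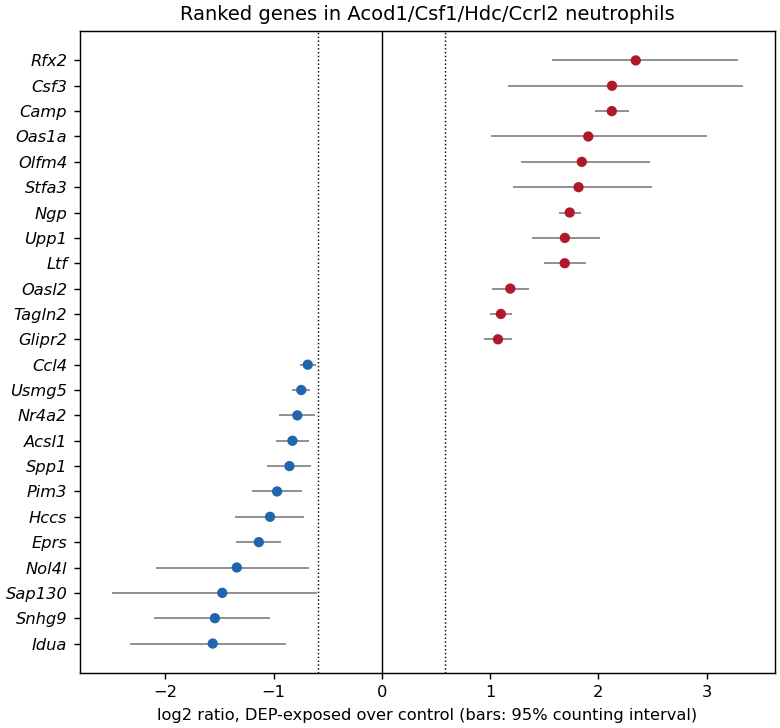
Log2 ratio of DEP-exposed over control members for the 12 higher (red) and 12 lower (blue) ranked genes, with exact 95% counting intervals as bars and dotted lines at 1.5-fold. Rfx2 is furthest right at 2.35 on 91 UMIs in all, and Tagln2 and Glipr2 have narrow intervals near 1.1.

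Among genes lower in exposed members, the mitochondrial and metabolic genes Usmg5 and Acsl1 were the best counted beside the chemokine Ccl4. Usmg5, a small subunit of the mitochondrial ATP synthase, had 308 CPM in exposed and 517 CPM in control members (-0.74, -0.83 to -0.66), and at 1000 UMIs was detected in 24.2% of exposed and 35.9% of control members. Acsl1, which activates long-chain fatty acids, had 93.2 CPM in exposed and 165 CPM in control members (-0.83, -0.98 to -0.68). Ccl4, an inflammatory chemokine, had 387 CPM in exposed and 622 CPM in control members (-0.68, -0.76 to -0.61). At 1000 UMIs its ratio of shares was 0.657 in members and 0.671 (0.455 to 0.979) in B cells. Barcodes that were not neutrophils had 346 CPM of Ccl4 in the exposed and 416 CPM in the control library, so its lower level was not particular to members. Eprs, a transfer RNA synthetase, had 44.5 CPM in exposed and 97.8 CPM in control members (-1.14), and Pim3, a survival kinase, 38.5 and 75.4 CPM (-0.97). Nr4a2, an orphan nuclear receptor induced by stimulation, had 74.8 CPM in exposed and 129 CPM in control members (-0.78), and osteopontin, Spp1, 51.7 and 93.5 CPM (-0.85). The noncoding Snhg9 had 41 UMIs in exposed and 124 in control members (-1.54), and Hccs, Idua, Nol4l and Sap130 completed the 12, with ratios between -1.03 and -1.56.

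Other inflammatory lists had medians near 0. Of 10 chemokines only Ccl4 was past the bound, with a median of 0.00, and Cxcl2 had 15029 CPM in exposed and 15797 CPM in control members (-0.07). Il1b had 17004 CPM in exposed and 16013 CPM in control members (0.09), and of 13 cytokines only Tnfsf9, with 42 exposed and 14 control UMIs, was past it, at 6.92 CPM in exposed members against 107 CPM in exposed barcodes that were not neutrophils. Of 17 NF-kB and feedback genes only Tnip3 was, on 11 exposed and 39 control UMIs, at 6.23 CPM in control members against 86.6 CPM in control barcodes that were not neutrophils, and the median was 0.02. Nfkbia had 4020 CPM in exposed and 2850 CPM in control members (0.50, 0.47 to 0.52), short of 1.5-fold. No gene was past the bound among 14 danger and particle receptors (median -0.05), 17 survival genes (-0.03), 22 glycolysis and hypoxia genes (-0.08) and 22 immediate early and heat shock genes (-0.12). Within the glycolysis list the growth factor Vegfa had 233 CPM in exposed and 353 CPM in control members (-0.60, -0.70 to -0.50). The same held for 5 genes of the aryl hydrocarbon receptor list with enough counts (-0.04), and its classical targets Cyp1a1, Cyp1b1 and Ahrr had no UMI in members of either library. Of 19 NRF2, iron and metallothionein genes, only Mt1 was past the bound, with 57.8 CPM in exposed and 103 CPM in control members (-0.83). Outside neutrophils Mt1 stood at 556 CPM in exposed and 697 CPM in control barcodes, so Mt1, Tnfsf9 and Tnip3 fall under the free RNA limit and are given as list members. Srxn1, which repairs oxidized peroxiredoxins, had 32.6 and 57.5 CPM (-0.82, -1.08 to -0.57), and the median was -0.04.

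Markers of maturity gave no single direction. Ly6g, the surface marker of mouse neutrophils, had 75.1 CPM in exposed and 42.3 CPM in control members (0.83, 0.60 to 1.05), and Retnlg 9352 and 6673 CPM (0.49). Cxcr2 had 539 CPM in exposed and 464 CPM in control members (0.22), and Cxcr4, the bone marrow retention receptor that ageing neutrophils regain, 831 and 1117 CPM (-0.43). Retnlg and Cxcr2 are genes of the rule, so their values are given as a description. Il1r2 was lower, 3137 CPM in exposed against 4622 CPM in control members (-0.56). Of the 8 identity genes outside the rule only Ly6g was past the bound. Members of the list of tissue neutrophils with high Siglecf had a median of 0.04 over 15 genes, and Siglecf had 76 UMIs in exposed and 92 in control members.

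**Figure D5:**
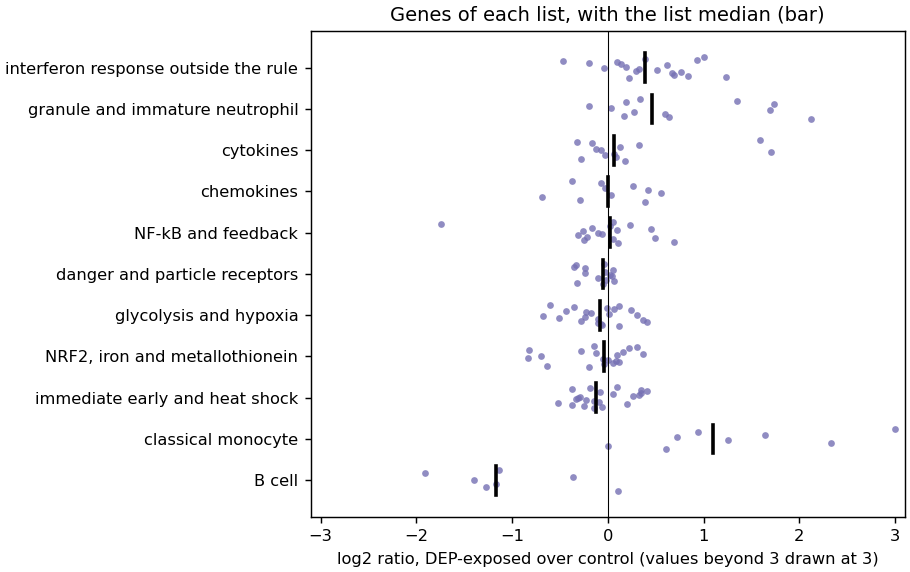
Log2 ratio of DEP-exposed over control members for each gene (dots) of 11 lists, genes with 20 or more counts, with the list median as a bar. Interferon (median 0.39) and granule genes (0.47) lie mostly right of 0, the inflammatory lists centre near 0, and monocyte and B cell markers lie apart at 1.10 and -1.16.

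Markers of other cells differed between the libraries within members, and their part in the results above was not tested. Classical monocyte markers summed to 377 CPM in exposed and 229 CPM in control members, with all 8 listed genes present and a log2 ratio of 0 or more. F13a1 had 124 UMIs in 15 exposed cells and 25 in 8 control cells, Vcan 93 UMIs in 12 exposed cells and 1 in 1 control cell, and 10 cells held 38.4% of the list's UMIs in exposed and 21.2% in control members. The monocyte median of 1.10 became -0.03 without called doublets and -0.04 without the 5% of members with most UMIs. B cell markers summed to 168 CPM in exposed and 283 CPM in control members, T cell markers to 50.2 and 88.8 CPM, and dendritic cell markers to 238 and 383 CPM, with Cd79a and Cd3e at 0 by the rule. Sftpc of alveolar epithelium had no UMI in exposed and 39 UMIs in control members. Alveolar macrophage markers summed to 540 CPM in exposed and 488 CPM in control members. Oasl2, Glipr2, Upp1 and Rfx2 kept log2 ratios of at least 1.15, 1.04, 1.60 and 1.97 over all alternatives, those leaving out doublets or members with monocyte transcripts included.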

How the data were processed

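The authors deposited raw counts of UMIs per gene and barcode, made with Cell Ranger against mm10 (version 3.1.3 per the submitters' processing notes, 3.1.0 per the file headers). The tables hold called cells only. UMIs of members were summed per library and given as CPM with exact Poisson intervals, shares with Clopper-Pearson intervals and ratios with exact conditional binomial intervals (scipy 1.17.1), 0.5 counts being added for log2 ratios. These cover counting error only, and no test between animals was possible. A gene was called when its interval lay beyond 1.5-fold. The 12 genes per side with the bound furthest from 0 were named, with the 2 best counted and the 2 with the most distant bound per list; genes named outside this rule, such as Zbp1, Ifi27l2a, Wfdc21 and Siglecf, were chosen after their values were seen. Doublets were scored per library from simulated doublets and were kept unless stated. Thinning drew 1000 UMIs per cell and left out shallower cells, 1.31% of exposed and 1.16% of control neutrophils. Intervals were tried on simulated sums with independent Poisson counts, the model that they assume. UMIs gathered in few cells, as for Camp, were not simulated, so how the intervals cover such genes was not tested. The members and gene lists were chosen with earlier results of these data known. Gene positions came from GENCODE, matched by identifier for 30934 of 31053 genes, and 35 symbols occurred more than once.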

Additional observations from a re-analysis of the deposited data

How the results depend on the processing

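The share of neutrophils below the interferon gate that were members had a ratio of 0.994, which was 0.909 over all filtered barcodes and 0.885 over all neutrophils. The 44 higher and 40 lower of 7043 genes in exposed members became 15 and 8 of 4541 with cells thinned to 1000 UMIs. They became 20 and 20 of 5102 among members of middle depth, and 15 and 6 of the same 7043 at 2-fold. The 40 lower genes were 65 of 6378 without called doublets and 63 of 8871 at 20 or more counts. They were 25 at 100 or more counts and 80 with no count minimum, where the number of genes compared also differs and is not given. Thinning left 4541 of 7043 genes to compare and the depth band 926 exposed and 1097 control cells; for the other changes the cause was not tested. Of the 84 called genes, 20 were called when thinned, 26 in the depth band, 43 without the deepest 5%, 56 without doublets, 60 without members with monocyte transcripts and 76 without members with granule transcripts. The comparison with the 21 exposed and 11 control neutrophils below the gate gave 4 higher and 14 lower of 5361 genes. These became 22 and 40 when the gate was a sum of 2, 1 and 3 in the depth band, 8 and 23 without the 5% of members with most UMIs, 2 and 6 with S100a8 and S100a9 at 3% or more, 0 and 7 thinned, and 1 and 6 at 2-fold. Only the higher count moved to 8 under a stricter cell filter, 8 without doublets and 0 with each cell weighing the same, and only the lower count to 3 with a gate of 5. A changed set of cells also changes how many genes are compared, which is not given for these settings, so these counts are not shares. Bins of members by 4-gene share gave 68 higher and 189 lower of 4132 genes. Without doublets 15 of 3501 genes were lower, and in the depth band 21 of 2342 were higher and 4 lower. The classical monocyte median turned to -0.028 without doublets and -0.040 without the deepest 5%. Marco turned from 2.06 to -0.69 without doublets, -0.13 with the stricter S100 gate, -1.35 in the depth band, -0.22 with equal weights and -0.28 without the deepest 5%. F13a1 turned from 2.33 to -0.19 without doublets, -0.50 in the depth band and -0.78 without members with monocyte transcripts. No other list median or named gene reversed, and 1503 single-gene values stayed within their counting interval while 214 moved. The settings on interferon-high neutrophils, monocyte and granule transcripts and all settings on bins were chosen after seeing the data. No paired analysis was possible because each condition had 1 library. Depth limits genes under about 50 counts, and Csf3, Oas1a and Rfx2 rest on fewer than 100 UMIs each.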
